A study of Mus musculus with 6 samples.

Results

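The genes described here are those of fatty acid oxidation and the known targets of the nuclear receptor PPAR alpha, measured in liver tumours of 6 male mice. They are a fixed list of 32 genes, and 31 of them were measured by a probe set that the array's annotation gives to that gene alone, out of 12393 genes so measured in the whole series. Where a gene had several such probe sets, the one with the highest mean over the 6 arrays stands for it. Cyp4a10 had none of its own and is not analysed here. The 31 measured genes comprise 17 of mitochondrial oxidation, 5 of peroxisomes, 1 of omega oxidation and 8 others: the receptor, a hormone and further targets.

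Liver burns fatty acids by several routes. In mitochondria, a carnitine shuttle carries long-chain acyl groups across the inner membrane, and acyl-CoA dehydrogenases, hydratases, hydroxyacyl-CoA dehydrogenases and thiolases then remove carbon units from the chain in repeated rounds. Peroxisomes shorten very long and branched chains, and cytochrome P450 enzymes of the Cyp4a family on the endoplasmic reticulum oxidize the far (omega) end of the chain. PPAR alpha, encoded by Ppara, is activated by fatty acids, pairs with a retinoid X receptor and induces genes of all these routes, most strongly during fasting. The AEG-1 protein has been reported to bind retinoid X receptors.

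The tumours came from 2 groups of 3 mice. Alb/AEG-1 mice express, from a transgene, AEG-1 (astrocyte elevated gene-1, product of Mtdh). The construct was injected as a 5.3-kb fragment into embryos from B6CBAF1/J matings. Alb stands for the albumin promoter, which is active in hepatocytes. The other group was wild type (WT), and the labels give CD-1 as the background strain of both. Both groups had been dosed once, when 14 days old, with the liver carcinogen N-nitrosodiethylamine (10 µg for each g of mouse), and the tumours were collected 28 weeks after birth. Untreated liver is therefore no part of the comparison, and the labels do not say how many founder lines were used or whether a sample was 1 tumour or several. Each value is a log2 expression level, so a difference of 1 is a 2-fold difference. Levels of different genes are not set against each other, because probe sets differ in how brightly they bind.

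Animal numbers in the titles form a range below 100 (Alb/AEG-1 replicates 1 and 2, WT replicate 1) and one above 100 (Alb/AEG-1 replicate 3, WT replicates 2 and 3). The labels do not say what the ranges mark. For listed genes given array by array, differences below and above number 100 stand beside the overall one, and each range has a group with 1 array. Hepatocyte markers (8 of 8 measured) were high on every array, with mean levels of 13.84 to 13.94 in Alb/AEG-1 and 13.86 to 13.90 in WT tumours (Tdo2 differed by 0.15 ± 0.10 and Cps1 by -0.11 ± 0.08). In bulk tumour RNA, fewer cells of a type and less RNA per cell cannot be told apart.

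The enzymes of mitochondrial and peroxisomal oxidation differed by at most 0.31 log2 between the groups, and larger differences were found among the regulators and other targets. The median SE was also larger, 0.21 over those 8 genes against 0.11 over the 22 enzymes. Not all of the 8 differed more, with Bdh1 at 0.11 and Acot2 at 0.09. Vnn1 and Fgf21 were higher in every Alb/AEG-1 tumour than in any WT tumour, and Ppara itself was lower in every one. After adjustment over all 22626 probe sets, 0 of the 31 genes passed (limma, Benjamini-Hochberg, lowest adjusted p = 0.492, for Vnn1), and 1 probe set of the whole table did, which is 0.00442%. At an unadjusted p below 0.05 there were 5 of the 31 genes, 2 higher (Vnn1, Fgf21) and 3 lower (Ppara, Acot1, Slc25a20) in Alb/AEG-1 tumours. Over all genes the share at that p was 8.33%, with 3.86% higher and 4.47% lower. The groups did not overlap in 4 of the 31 genes, 2 higher (Vnn1, Fgf21) and 2 lower (Ppara, Hsd17b4). Over all genes they did not overlap in 15.1%, with 6.77% higher and 8.31% lower. The count of 5 became 8 without Alb/AEG-1 replicate 3 and 3 without WT replicate 3, Alb/AEG-1 replicate 1 or Alb/AEG-1 replicate 2. The share of all genes was not counted in those fits, so the changed counts are not read as a result about these genes.

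**Figure D1:**
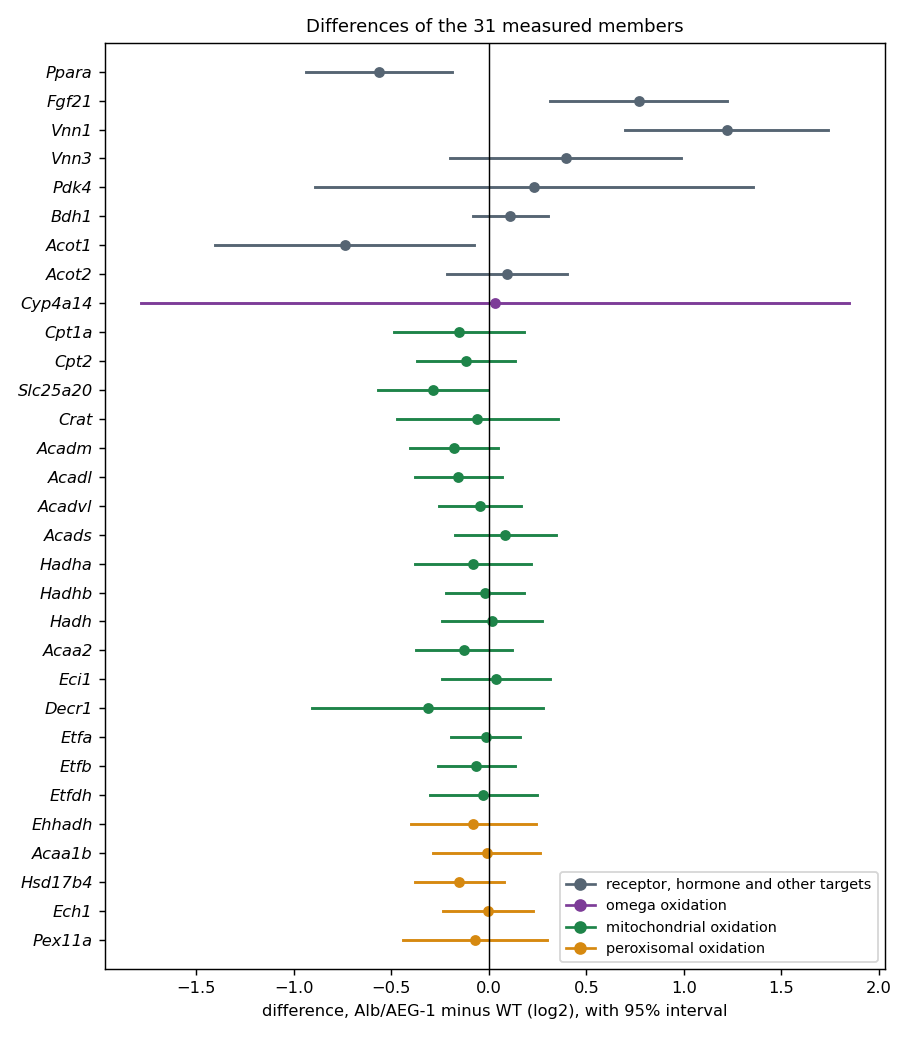
Difference in log2 level (Alb/AEG-1 minus WT, points) with its 95% interval from limma (lines, not adjusted for the number of genes) for each of the 31 measured genes, coloured by route. Enzymes of mitochondrial and peroxisomal oxidation cluster at 0, with differences from -0.31 to 0.08, and the highest and lowest differences are 1.22 for Vnn1 and -0.74 for Acot1.

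Ppara, the receptor gene, was at 9.95, 9.72 and 9.94 in Alb/AEG-1 tumours, against 10.20, 10.79 and 10.32 in WT tumours. The groups did not overlap, and all Alb/AEG-1 arrays were below all WT arrays. The means were 9.87 ± 0.13 in Alb/AEG-1 and 10.44 ± 0.31 in WT tumours (SD, n = 3 each). That is a difference of -0.56 ± 0.16 log2 (SE, 0.676-fold, 95% interval 0.522 to 0.876, limma adjusted p = 0.596). Among animal numbers below 100 it was -0.36, and among those above 100 it was -0.61.

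Fgf21 encodes a hormone that the fasted liver secretes under control of PPAR alpha and that acts on fat tissue and brain. Its levels were 6.27, 6.28 and 5.79 in Alb/AEG-1 tumours and 5.45, 4.98 and 5.60 in WT tumours. All Alb/AEG-1 arrays were above all WT arrays, Alb/AEG-1 replicate 3 only narrowly. The probe set is dim, with a mean of 5.73 over the 6 arrays against a median of 5.83 over all probe sets. The difference was 0.77 ± 0.19 log2 (SE, 1.70-fold, 95% interval 1.24 to 2.33, limma adjusted p = 0.596), with 0.82 below number 100 and 0.50 above it. Receptor and hormone thus differed in opposite directions in both ranges of animal numbers.

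PPAR alpha binds DNA at a direct repeat (DR1), 2 copies of the hexamer AGGTCA with any 1 base between them. The stretch of each gene from 250 bases before to 50 after its start, from RefSeq (GRCm38.p6), was searched on both strands, allowing up to 2 mismatches among the 12 fixed letters. Of the listed genes, 25 of 32 had such a window, and 2 of these held a match, Slc25a20 and Etfa, which is 8% against 4.40% of 27025 genes with a window. Both follow, with the closest stretches of the other genes at an unadjusted p below 0.05 (limma) that had a window. Those of Ppara, Fgf21 and Acot1 have 4 mismatches, and each is the first of several equally close ones. The share of all genes with a stretch of 4 mismatches was not counted. These stretches are therefore not read as near the motif. Capitals mark the 13 bases set against the motif.
Slc25a20 (2 mismatches, chr9:108662134-108662162, plus strand): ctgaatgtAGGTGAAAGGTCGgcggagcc
Etfa (2 mismatches, chr9:55512300-55512328, plus strand): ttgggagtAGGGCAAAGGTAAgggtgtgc
Ppara (4 mismatches, chr15:85735529-85735557, plus strand): ggacgctaCGGTCCCACGACAggggtgac
Fgf21 (4 mismatches, chr7:45615553-45615581, minus strand): tgccaagtGTGTCAAATATCAcgcgtcag
Acot1 (4 mismatches, chr12:84009401-84009429, plus strand): ggaggtgtCTGTCTGAGGCCAaccaatgg
The match in Slc25a20 begins 7 bases into the transcript and runs along it. That in Etfa lies on the opposite strand, and its base farthest upstream of the start is at position -77. A match of letters is not a shown binding site, and windows without one say nothing about sites farther away.

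Vnn1 had the largest difference of the 31 genes. It encodes a pantetheinase, a membrane-anchored enzyme that releases pantothenate (vitamin B5, the precursor of coenzyme A), and is a well-known PPAR alpha target in mouse liver. Its levels were 8.68, 8.09 and 7.78 in Alb/AEG-1 tumours, against 6.72, 7.07 and 7.09 in WT tumours. The lowest Alb/AEG-1 array lay above the highest WT array. The difference was 1.22 ± 0.22 log2 (SE, 2.33-fold, 95% interval 1.62 to 3.34, limma adjusted p = 0.492), with 1.66 below number 100 and 0.70 above it.

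Vnn3, a related vanin gene, was at 8.10, 8.34 and 9.10 in Alb/AEG-1 tumours and 7.84, 8.34 and 8.18 in WT tumours. The groups overlapped, and Alb/AEG-1 replicate 3 stood highest. The difference was 0.39 ± 0.25 (SE, limma adjusted p = 0.678). With number range added to the fit it was 0.61 (limma adjusted p = 0.685, unadjusted p = 0.00318), and it was 0.38 below number 100 and 0.84 above it. Macrophage markers (8 of 8 measured) all had a positive difference, with a median of 0.41. C1qb, a complement subunit gene, differed by 0.76 ± 0.21 and Cd5l by 0.54 ± 0.17. Their mean level was 7.27 to 7.79 in Alb/AEG-1 and 6.93 to 7.32 in WT tumours, which overlap, and their part in the vanin values was not tested.

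Pdk4, whose product inhibits pyruvate dehydrogenase and so spares glucose when fat is burned, varied within both groups. It was at 5.75, 6.80 and 5.57 in Alb/AEG-1 tumours and 6.78, 4.98 and 5.66 in WT tumours. Its difference of 0.23 ± 0.48 (SE, 95% interval -0.89 to 1.35) is smaller than the spread among WT mice (SD 0.91). It turned to -0.13 with number range added to the fit and to -0.19 without WT replicate 2, and it was -0.51 below number 100 and 0.25 above it.

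Acot1 and Acot2 encode acyl-CoA thioesterases, which split acyl-CoA into free fatty acid and coenzyme A in the cytosol (Acot1) and in mitochondria (Acot2). Acot1 was at 6.50, 6.52 and 7.37 in Alb/AEG-1 tumours, against 7.54, 7.11 and 7.96 in WT tumours, a difference of -0.74 ± 0.28 log2 (SE, 0.599-fold, 95% interval 0.378 to 0.948, limma adjusted p = 0.611). Alb/AEG-1 replicate 3 overlapped WT replicate 2, and the difference was -1.03 below number 100 but -0.17 above it. Acot2 had similar levels on 5 arrays, 4.16 to 4.25, and 4.63 on Alb/AEG-1 replicate 3, with a difference of 0.09 ± 0.13. A further probe set, which the annotation assigns to both genes and which was used for neither, differed by -0.43 ± 0.30.

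Bdh1, which encodes the enzyme that interconverts the ketone bodies acetoacetate and beta-hydroxybutyrate, was at 10.44, 10.52 and 10.41 in Alb/AEG-1 tumours and 10.28, 10.34 and 10.42 in WT tumours. The groups overlapped at WT replicate 3, and the difference was 0.11 ± 0.08 (SE, 95% interval -0.08 to 0.30), with 0.20 below number 100 and 0.03 above it.

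**Figure D2:**
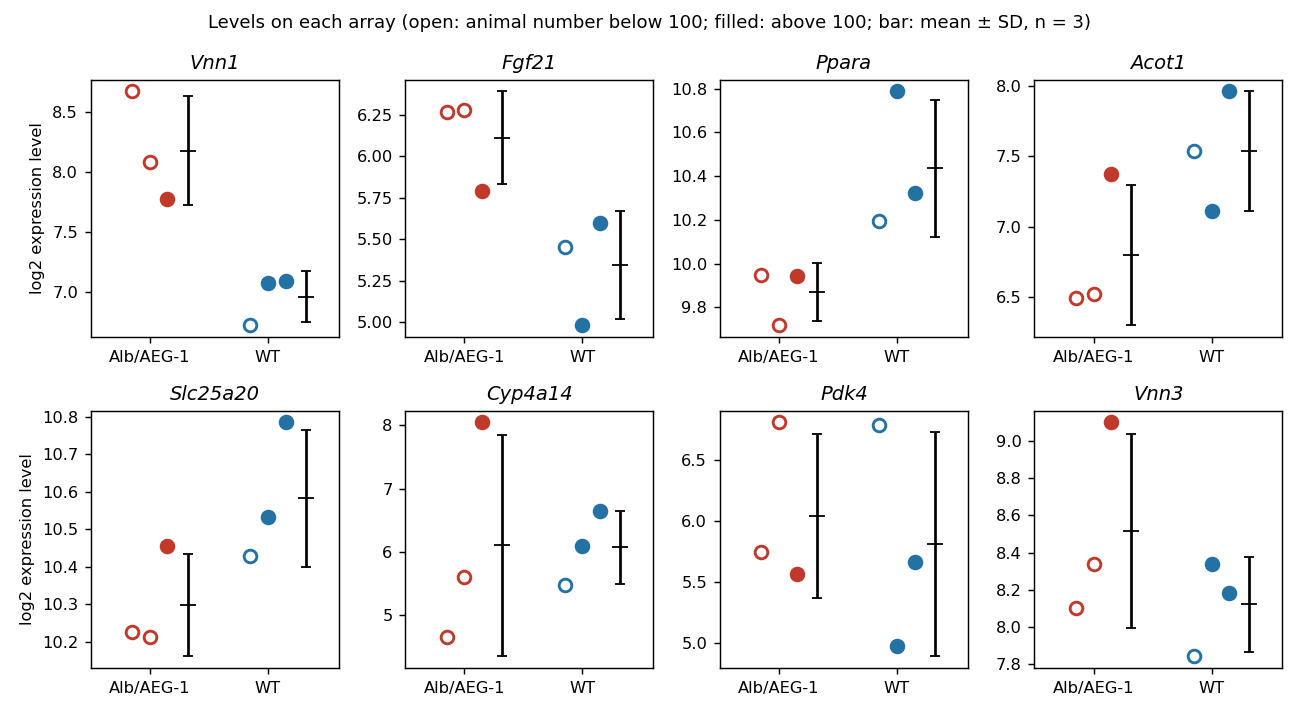
Log2 expression level on each array (circles) of 8 genes, with Alb/AEG-1 tumours on the left and WT tumours on the right of each panel; open circles are animal numbers below 100, filled ones above 100, and bars are mean ± SD of 3 arrays. Vnn1 and Fgf21 lie higher and Ppara lower on all Alb/AEG-1 arrays, while Cyp4a14 runs from 4.66 to 8.05 among the 3 Alb/AEG-1 tumours.

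Omega oxidation was represented by Cyp4a14, a fatty acid hydroxylase and one of the most inducible PPAR alpha targets in mice. Its levels were 4.66, 5.60 and 8.05 in Alb/AEG-1 tumours and 5.48, 6.09 and 6.64 in WT tumours. The highest and the lowest of the 6 values were both Alb/AEG-1 tumours, so the means were close (6.10 ± 1.75 in Alb/AEG-1 and 6.07 ± 0.58 in WT tumours, SD, n = 3 each). The difference of 0.03 ± 0.78 log2 (SE) had a 95% interval of -1.78 to 1.85, too wide to exclude a difference of several fold either way. It was -0.35 below number 100, 1.68 above it, and -0.94 without Alb/AEG-1 replicate 3. A probe set that the annotation gives to Cyp4a10 and Cyp4a31 together, and that was assigned to neither, was at 6.02, 7.16 and 10.71 in Alb/AEG-1 and 8.80, 9.54 and 9.51 in WT tumours. Its difference was -1.32 ± 1.05 (SE), with -2.21 below number 100, 1.19 above it and -2.69 without Alb/AEG-1 replicate 3. Its order among the Alb/AEG-1 arrays was that of Cyp4a14, while among the WT arrays the orders differed.

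The carnitine shuttle had a median difference of -0.13 over its 4 genes, all negative. Slc25a20 encodes the carnitine-acylcarnitine translocase of the inner membrane. It was at 10.23, 10.21 and 10.46 in Alb/AEG-1 tumours, against 10.43, 10.53 and 10.79 in WT tumours, with a small overlap between Alb/AEG-1 replicate 3 and WT replicate 1. The difference was -0.28 ± 0.12 log2 (SE, 0.821-fold, 95% interval 0.675 to 0.998, limma adjusted p = 0.618). With number range added to the fit it was -0.21 and no longer at an unadjusted p below 0.05. It was -0.21 below number 100 and -0.20 above it. Centring each array on its median, or taking the mean of its probe sets, also moved it above that p.

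Cpt1a, the outer-membrane transferase that is the rate-controlling step of long-chain oxidation, was at 10.30, 10.21 and 10.35 in Alb/AEG-1 tumours and 10.11, 10.60 and 10.61 in WT tumours. The Alb/AEG-1 arrays fell inside the span of the WT arrays, and the difference was -0.15 ± 0.14 (SE, 95% interval -0.49 to 0.18). Below number 100 it was 0.14, and above it -0.25. Cpt2, the inner-membrane transferase, differed by -0.12 ± 0.11 and Crat, the carnitine acetyltransferase found in mitochondria and peroxisomes, by -0.06 ± 0.18.

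Among the 10 enzymes of the mitochondrial beta oxidation cycle, differences lay between -0.31 and 0.08, with a median of -0.06. Acadm, the medium-chain acyl-CoA dehydrogenase, was at 11.83, 11.75 and 12.04 in Alb/AEG-1 tumours and 12.01, 12.05 and 12.09 in WT tumours. Alb/AEG-1 replicates 1 and 2 lay below every WT array and replicate 3 among them, and the difference was -0.18 ± 0.10 (SE, 95% interval -0.41 to 0.05), with -0.22 below number 100 and -0.04 above it. The other dehydrogenases, by decreasing chain length, differed by -0.05 ± 0.09 (Acadvl), -0.16 ± 0.10 (Acadl) and 0.08 ± 0.11 (Acads).

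Hadha, the alpha subunit of the trifunctional protein that completes the cycle for long chains, was at 9.50, 9.24 and 9.68 in Alb/AEG-1 tumours and 9.59, 9.43 and 9.64 in WT tumours. The groups overlapped, with Alb/AEG-1 arrays both lowest and highest, and the difference was -0.08 ± 0.13, with -0.22 below number 100 and 0.14 above it. Its beta subunit gene Hadhb differed by -0.02 ± 0.09, the short-chain hydroxyacyl-CoA dehydrogenase gene Hadh by 0.02 ± 0.11, the thiolase gene Acaa2 by -0.13 ± 0.11 and Eci1, an isomerase needed for unsaturated chains, by 0.04 ± 0.12. The probe sets of Hadh (x_at) and Acaa2 (s_at) are of types that can cross-hybridize with similar transcripts.

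Decr1, the dienoyl-CoA reductase for polyunsaturated chains, had the lowest difference of these enzymes, and it rested on 1 array. It was at 10.88, 9.89 and 10.88 in Alb/AEG-1 tumours and 10.80, 10.86 and 10.93 in WT tumours. Alb/AEG-1 replicate 2 stood about 1 log2 below the other 5 arrays, which lay close together. The difference was -0.31 ± 0.25 with that array and 0.02 without it. Below number 100 it was -0.42, and above it -0.02.

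The 3 genes of the electron transfer flavoprotein path, which passes electrons from the dehydrogenases to the respiratory chain, differed by -0.02 ± 0.08 (Etfa), -0.06 ± 0.08 (Etfb) and -0.03 ± 0.12 (Etfdh).

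Over all 17 genes of mitochondrial oxidation the median difference was -0.06, against -0.01 over all genes, and 14 were negative and 3 positive, where 52.2% of all genes were negative. At an unadjusted p below 0.05 there was 1 of 17, Slc25a20. Alb/AEG-1 replicate 2 was the lowest of the 6 arrays in 13 of the 17 genes, against 15.6% of all genes (13.0 to 19.4% over the 6 arrays). With 1 of the other arrays left out, 13 to 16 of 17 were negative, with medians from -0.12 to -0.05, against 50.8 to 52.8% of all genes. With Alb/AEG-1 replicate 2 left out, 9 of 17 were negative, with a median of -0.02, against 50.8% of all genes. The same array was lowest for the fasting-induced gluconeogenic genes Pck1 (10.56) and G6pc (10.44), and for Ppargc1a and Tat of their list. The rest of that list was lowest elsewhere, Irs2 on Alb/AEG-1 replicate 3, Igfbp1 and Fbp1 on WT replicate 1 and Pcx on WT replicate 3. Irs2 and Ppargc1a, the genes of that list with the smallest p, differed by -0.57 ± 0.30 and -0.57 ± 0.33. The mean over that list of 8 measured genes was 10.63, 9.97 and 10.35 in Alb/AEG-1 and 10.30, 10.63 and 10.59 in WT tumours, and its part in the oxidation values was not tested. Its hepatocyte marker mean was 13.84. The SD between tumours was larger in Alb/AEG-1 than in WT for 11 of the 17 genes (49.2% of all genes), with medians of 0.14 and 0.07.

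**Figure D3:**
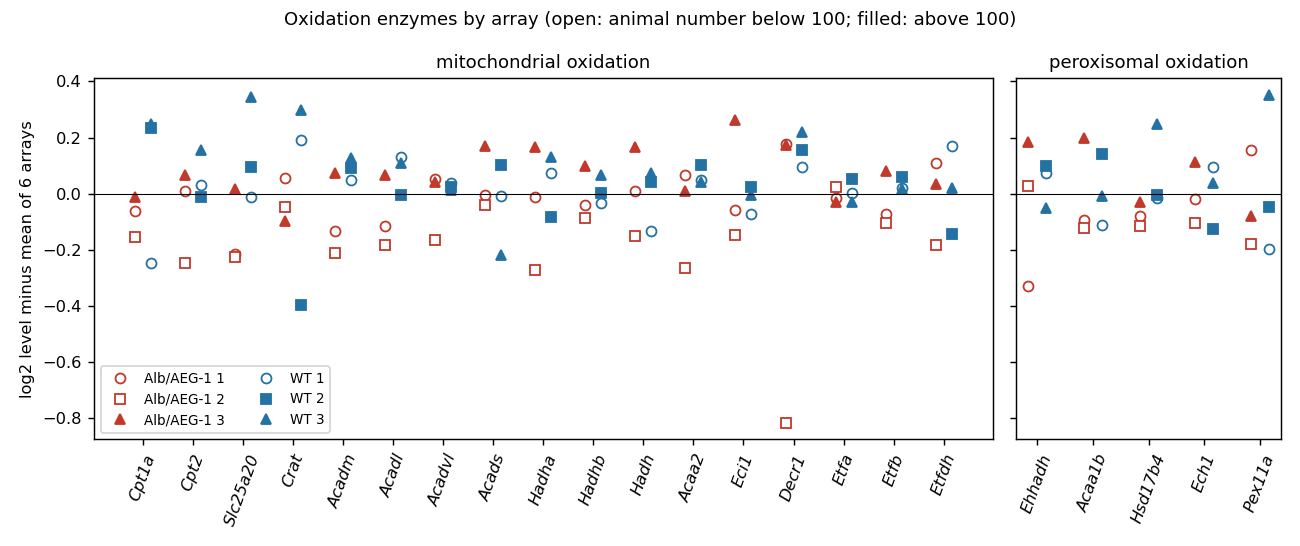
Level of each of 17 mitochondrial (left) and 5 peroxisomal (right) genes on each array, as log2 level minus the gene's mean over the 6 arrays; Alb/AEG-1 in red, WT in blue, open symbols for animal numbers below 100. The red open squares, Alb/AEG-1 replicate 2, are lowest in 13 of the 17 mitochondrial genes, most clearly in Decr1, where the level was 9.89.

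In peroxisomes, the bifunctional enzyme gene Ehhadh, a strongly inducible PPAR alpha target, was at 10.52, 10.88 and 11.03 in Alb/AEG-1 tumours and 10.92, 10.95 and 10.80 in WT tumours. Again the lowest and highest arrays were both Alb/AEG-1, and the difference was -0.08 ± 0.14 (SE, 95% interval -0.40 to 0.24), with -0.22 below number 100 and 0.16 above it. The thiolase gene Acaa1b was at 13.05, 13.02 and 13.34 in Alb/AEG-1 and 13.03, 13.28 and 13.13 in WT tumours, a difference of -0.01 ± 0.12, with 0.01 below number 100 and 0.13 above it.

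Hsd17b4, the multifunctional enzyme for very long and branched chains, was at 11.09, 11.05 and 11.14 in Alb/AEG-1 tumours, against 11.15, 11.16 and 11.42 in WT tumours. The groups did not overlap, but by only a narrow margin, and the difference was -0.15 ± 0.10 (SE, limma adjusted p = 0.679) on an x_at probe set, with -0.08 below number 100 and -0.15 above it. On a further probe set of Hsd17b4, which is not x_at or s_at, the groups overlapped, with a difference of -0.11 ± 0.09. Ech1, a dienoyl-CoA isomerase of peroxisomes and mitochondria, differed by -0.01 ± 0.10. Pex11a, which promotes peroxisome division, differed by -0.07 ± 0.16.

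All 5 peroxisomal genes had a negative difference, with a median of -0.07 and a largest size of 0.15. Without Alb/AEG-1 replicate 1 or replicate 2, 2 of 5 were negative. Taking mitochondria and peroxisomes together, the 95% interval lay within 0.5 log2 (1.41-fold) of no difference in 20 of the 22 genes, the exceptions being Slc25a20 and Decr1. The share of all genes within that window was not counted, so this is not a trait of these genes. Their median size of difference was 0.08 and median SE 0.11, against 0.10 and 0.11 over all genes. Cpt1a was inside with a lower limit of -0.49, but further probe sets of it reached -0.79 and -0.91. Of the 15 further probe sets for 12 of the 31 genes, 13 had the same sign as the one used, and 0 reached an unadjusted p below 0.05 in limma. The largest difference among them was -0.38 ± 0.17, for an x_at probe set of Cpt1a.

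Several of these genes followed the animal number range more clearly than the genotype. The lower and higher numbers did not overlap in 9 of the 31 genes, against 16.4% of all genes. Pdk4 was higher in the lower numbers. Cyp4a14, Cpt1a, Slc25a20, Acadm, Hadhb, Hadh, Eci1 and Acaa1b were higher in the higher numbers, 8 of 31 where 8.30% of all genes were. Cyp4a14 was at 6.09 to 8.05 in the higher and 4.66 to 5.60 in the lower numbers, and Acadm at 12.04 to 12.09 in the higher and 11.75 to 12.01 in the lower. The margin was narrow for Acadm and for Slc25a20, at 10.46 to 10.79 in the higher and 10.21 to 10.43 in the lower.

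Genes of the circadian clock, which times feeding-related liver genes including Ppara, also lay apart by number range. The ranges did not overlap in 8 of 13 measured clock genes, against 16.4% of all genes. Npas2, an activator of the clock, was at 3.45 to 4.07 in the higher and 5.77 to 6.42 in the lower numbers. Per2, a repressor of the clock, was at 7.52 to 8.13 in the higher and 5.93 to 6.75 in the lower. Between genotypes, 0 of these 13 genes reached an unadjusted p below 0.05 in limma, with Cry2 at -0.38 ± 0.23 and Cry1 at -0.47 ± 0.30. The part of clock phase or of the number range in the oxidation genes was not tested.

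Within the lower numbers 14 of 17 mitochondrial genes were negative, against 51.0% of all genes. Within the higher numbers 8 of 17 were, against 51.5% of all genes. With the range as a term in the fit, 4 of the 31 genes were at an unadjusted p below 0.05, against 6.53% of all genes in the same fit. They were Vnn1 (1.18), Fgf21 (0.66) and Vnn3 (0.61) upwards and Ppara (-0.49) downwards, with adjusted p from 0.637 to 0.728 in limma. Vnn1, Fgf21 and Ppara were also at an unadjusted p below 0.05 in limma without any 1 of the 6 arrays. Their adjusted p in those fits ran from 0.227 to 0.869. They had the smallest p of the 31 genes over the same arrays, so these fits are not separate support. The share of all genes was not counted there.

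**Figure D4:**
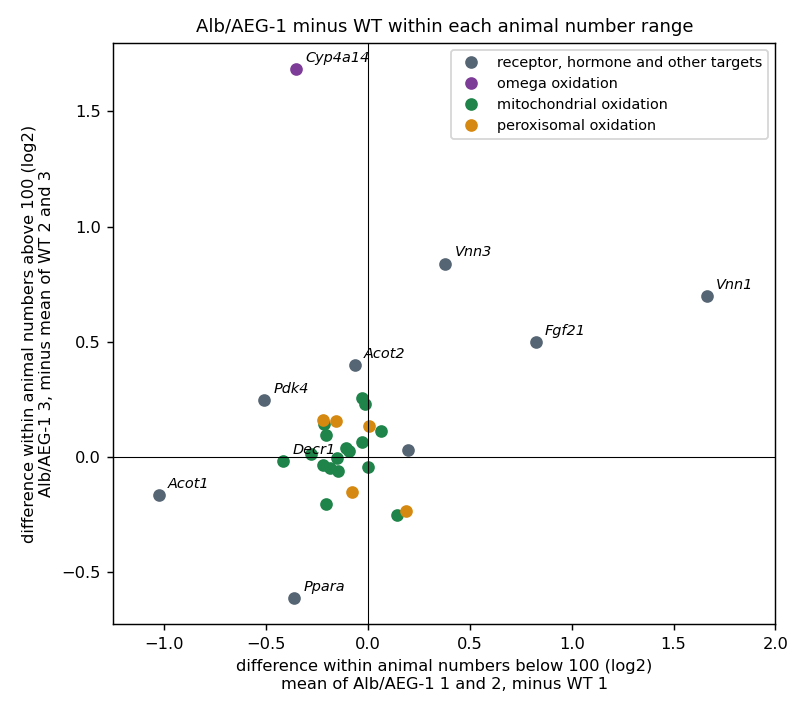
Difference in log2 level (Alb/AEG-1 minus WT) of each of the 31 genes within animal numbers below 100 (x axis) and above 100 (y axis), coloured by route; each range holds 3 arrays. Vnn1 (1.66 and 0.70) and Fgf21 (0.82 and 0.50) are positive and Ppara (-0.36 and -0.61) negative in both ranges, while Cyp4a14 is at -0.35 and 1.68.

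Other genes of these routes were listed apart from the 31. Of 97 measured, 0 passed the adjusted threshold in limma. Unadjusted p lay below 0.05 for 6 of them, 5 lower and 1 higher in Alb/AEG-1 tumours. That is 6.19%, below the 8.33% of all genes. With number range added to the fit, 9 of the 97 were at that p, against 6.53% of all genes. Without that term, further mitochondrial genes had 0 of 12 at that p, with the isomerase gene Eci2 at -0.30 ± 0.17, Ivd, a dehydrogenase of leucine breakdown, at -0.17 ± 0.12 and the hydratase gene Echs1 at 0.13 ± 0.10. Further peroxisomal genes had 1 of 26, Acox2, the oxidase for branched chains and bile acid precursors. It was higher on every Alb/AEG-1 array, by 0.24 ± 0.09. The transporter genes Abcd3 and Abcd2 differed by -0.23 ± 0.12 and 0.23 ± 0.12. Further omega oxidation genes had 1 of 11, Cyp4f15 at -0.36 ± 0.13, followed by Cyp4f16 at 0.19 ± 0.13 and Cyp4a31 at 0.17 ± 0.13. Ketone body genes had 0 of 3, with Slc16a1, a ketone and lactate transporter, at 0.29 ± 0.29, Oxct1 at -0.04 ± 0.18 and Acat1 at 0.02 ± 0.11.

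Other known PPAR alpha targets had 4 of 29 at an unadjusted p below 0.05, all lower in Alb/AEG-1 tumours. That is 13.8%, where 8.33% of all genes were at that p and 4.47% were lower. Lpin2, a phosphatidate phosphatase gene, was at 8.85, 7.97 and 9.21 in Alb/AEG-1 tumours, against 9.44, 9.86 and 9.37 in WT tumours, a difference of -0.88 ± 0.30 with no overlap. That difference was -1.03 below number 100 and -0.41 above it, and -0.53 without Alb/AEG-1 replicate 2. Retsat, encoding retinol saturase, was at 10.68, 10.83 and 11.17 in Alb/AEG-1 tumours, against 11.27, 11.26 and 11.29 in WT tumours. It too had no overlap, with a difference of -0.38 ± 0.13, which was -0.51 below number 100 and -0.11 above it. Angptl4, an inhibitor of lipoprotein lipase induced in fasting, differed by -0.73 ± 0.29 on an s_at probe set. Below number 100 it was -0.24, and above it -0.82. The fourth was the water and glycerol channel gene Aqp3. Partners and co-regulators of the receptor had 0 of 16, with Ppargc1a, a coactivator of oxidation genes, at -0.57 ± 0.33, the deacetylase gene Sirt1 at -0.20 ± 0.12 and the corepressor gene Nrip1 at -0.20 ± 0.13.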

How the data were processed

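The deposited table holds log2 expression levels for 22690 probe sets on 6 arrays. RMA is named in the submitters' processing notes, with no version, and the authors' log2 values were used as deposited. Total RNA (5 µg) had been extracted with Trizol and hybridized as biotinylated cRNA, per the labels' protocols. Array medians differed by at most 0.0289.

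Control probe sets (64) were left out. Gene symbols came from the platform annotation, where 20380 probe sets had 1 symbol, 691 several and 1555 none; 20351 of the 20380 had a gene ID found in a RefSeq gene table, whose symbol was then used. Groups came from the genotype labels, and replicates were numbered in accession order. The arrays carry different animal numbers and were treated as separate animals; no 2 arrays were identical.

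Differences (Alb/AEG-1 minus WT) were fitted over 22626 probe sets with limma 3.58.1 in R 4.3.3 (lmFit, eBayes, 2-sided), with Benjamini-Hochberg adjustment over all of them and a threshold of 0.05. The fit was tested on simulated data. The number of arrays limits the precision.

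The genes and lists were chosen with earlier results of these data known, so no list was tested. Values on all arrays are given for 12 genes fixed by name (Cyp4a10 among them was not measured) and for every other member at an unadjusted p below 0.05 or without overlap; Vnn3, Decr1, Acot2, Aqp3, Pck1, G6pc, Npas2, Per2 and the count of genes lowest on 1 array were picked after their values were seen. Of each pathway list the 3 genes with the smallest p are named, and of each marker, clock or fasting list the 2. For every gene of the fasting list the array with its lowest level is also given. Plots were drawn with matplotlib 3.10.9.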

Additional observations from a re-analysis of the deposited data

How the results depend on the processing

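In limma under 16 alternative fits, 0 of the 31 genes passed an adjusted p of 0.05, with a lowest adjusted p of 0.227 (Vnn1, without Alb/AEG-1 replicate 3). Vnn1, Fgf21 and Ppara kept their direction in every one of these fits that held them. The probe sets past the adjusted threshold numbered 1, and 2 with an intensity trend or the mean of all probe sets of a gene, 0 with 1 probe set a gene or the animal number range as a term, and 0 to 1 without 1 array. Members at an unadjusted p below 0.05 numbered 5, and 4 with median centring, the mean of all probe sets of a gene or the number range as a term. They numbered 3 with dim probe sets left out, where 29 members remained, without Fgf21 and Acot2. Without 1 array they numbered 3 to 8. The share of all genes at that p was counted only in the main fit and with the number range as a term. Within the higher animal numbers the median was 0.13 for peroxisomal genes and 1.68 for Cyp4a14, the 1 gene of omega oxidation.

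Some differences changed sign in some settings, and the cause was not tested. Most of these were near 0 in the main fit, but Decr1 (-0.31) and Pdk4 (0.23) were not. Acaa1b was 0.012 after quantile normalization, 0.00044 after median centring and 0.069 with the range as a term. Ech1 was 0.0068 after median centring and 0.00012 with the range as a term, which put Hadhb at 0.017 and Pdk4 at -0.13. Hadh was -0.071 without s_at and x_at probe sets, which can cross-hybridize, -0.036 as the mean of its probe sets and -0.0061 with array weights, which put Cyp4a14 at -0.23. Without 1 array the differences ran from -0.11 to 0.056 for Acaa1b, -0.0058 to 0.16 for Acads, -0.085 to 0.024 for Acadvl, -0.057 to 0.18 for Acot2, -0.27 to 0.075 for Crat, -0.94 to 0.75 for Cyp4a14, -0.48 to 0.017 for Decr1, -0.070 to 0.045 for Ech1, -0.084 to 0.12 for Eci1, -0.19 to 0.066 for Ehhadh, -0.036 to 0.0054 for Etfa, -0.11 to 0.057 for Etfdh, -0.065 to 0.095 for Hadh, -0.18 to 0.036 for Hadha, -0.075 to 0.017 for Hadhb, -0.19 to 0.72 for Pdk4 and -0.19 to 0.087 for Pex11a. The other tested member values kept their sign. No paired analysis was possible because the labels give no replicate numbers shared by the groups. The planned log transform of linear values had no use, as the deposited values are already log2.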

Other observations

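Markers of cells other than hepatocytes and macrophages were not part of the comparisons above. Of 6 endothelial markers, Lyve1 of sinusoidal endothelium differed by 0.52 ± 0.22 and Clec4g by -0.16 ± 0.10, and the median was -0.05. Stellate cell markers had a median of 0.03 over 7 genes, with the collagen gene Col3a1 at 0.39 ± 0.20 and Des at -0.15 ± 0.08. T and NK cell markers had a median of -0.13 over 6 genes (Gzmb at -0.29 ± 0.12 and Cd3g at -0.17 ± 0.10). Mean levels of these 6 genes were low, from 3.65 to 6.16. The 4 cholangiocyte and 3 adipocyte markers measured had medians of -0.0028 and -0.03, with Sox9 at 0.37 ± 0.38, Krt7 at -0.07 ± 0.11, Retn at -0.09 ± 0.12 and Lep at -0.03 ± 0.11. Values are log2 differences, Alb/AEG-1 minus WT, with the SE from limma, and 0 of these genes passed an adjusted p of 0.05, while Lyve1 and Gzmb were at an unadjusted p below 0.05.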
